A study of Mus musculus with 12 samples.

Results

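Genes of mitochondrial fatty acid oxidation and of the adjoining ketone body and propionate pathways were examined in mouse liver without HNF4A and in fibroblasts given HNF4A. They were taken by name from a list of 30 gene symbols, drawn up with earlier results of these data known, and all 30 were found among the 24340 gene entries of each of 2 RNA-seq tables. HNF4A is a nuclear receptor that binds and activates many genes of the hepatocyte. The study asked what its loss in the adult liver, and its expression in cells that lack it, did to gene regulatory elements and transcription.

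The *Hnf4a* cKO livers came from adult mice with floxed *Hnf4a* alleles (*Hnf4a* fl/fl) and *Alb-CreERT2*, a Cre recombinase driven by the albumin promoter that acts only after tamoxifen, and they were collected after a week of tamoxifen. The control livers are described in the methods as *Hnf4a* fl/fl, Cre negative and without tamoxifen, in a supplementary legend as untreated livers of the same genotype, and in the sample labels as WT. Loss of HNF4A, tamoxifen and, by the methods, Cre therefore cannot be told apart. The HNF4A EE 3T3 cells were NIH 3T3 cells, a mouse embryonic fibroblast line, collected 72 h after transduction with a lentivirus that carries mouse *Hnf4a* and GFP. The control 3T3 cells received the empty vector. Each of the 4 groups had 3 biological replicates, and the deposited tables give 1 FPKM per gene and group, a count of sequenced fragments adjusted for transcript length and sequencing depth. Every FPKM here is the authors' single value for a group, with no replicate spread or depth, and no test is given.

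Fatty acids enter mitochondria as acyl carnitines and are shortened in repeated rounds of dehydrogenation, hydration, a further dehydrogenation and thiolysis, and each round yields acetyl-CoA. Electrons from the acyl-CoA dehydrogenases reach the respiratory chain through the electron transfer flavoprotein. During fasting hepatocytes turn much of the acetyl-CoA into acetoacetate and beta-hydroxybutyrate, the ketone bodies that other tissues burn, and fatty acids of odd chain length leave propionyl-CoA, which passes through methylmalonyl-CoA into the citric acid cycle.

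In cKO livers 10 of 29 genes were lower and 3 higher, beside 19.1% and 15.5% of all genes. With equal FPKM sums in both groups 3 were lower and 9 higher, beside 11.2% and 35.7% of all genes. *Bdh1*, the enzyme that interconverts acetoacetate and beta-hydroxybutyrate, had 7.06 FPKM in *Hnf4a* cKO livers, against 166 FPKM in control livers, a 23.5-fold lower level. *Cpt1a*, which controls the entry of long-chain fatty acids, had 78.9 FPKM in cKO livers and 158 FPKM in control livers. With HNF4A in 3T3 cells *Cpt1a* lay in the other direction, at 56.1 FPKM in HNF4A EE cells and 26.9 FPKM in control cells, and 5 of the 9 acyl-CoA dehydrogenases were also higher with HNF4A, beside 23.1% of all 3T3 genes. *Acat1* and 3 of the 4 propionate pathway genes were lower, beside 22.9% of all 3T3 genes.

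A difference was counted as lower or higher where the log2 ratio of FPKM + 1 was at or beyond -0.5 or 0.5, the fold limit of the study's methods, among genes at 1 FPKM or more in at least 1 group of the table. The 1 FPKM that is added makes the ratio of a gene of low level smaller than its fold. Of the 30 genes, 29 were compared in the livers and 28 in the 3T3 cells. *Cpt1c* was below 1 FPKM in all 4 groups, and *Bdh1* was below it in both 3T3 groups. In the livers 10 genes were lower, 3 were higher and 16 lay within the limits, with a median log2 ratio of -0.18 over the 29. Of all 11275 liver genes compared, 19.1% were lower and 15.5% were higher, and their median log2 ratio was -0.01. The liver direction of the set depends on scaling: the FPKM of all entries sum to 458704 in cKO livers and 601955 in control livers, and with both set to the same sum 3 of the genes were lower and 9 higher, their median was 0.21, and the median of all genes was 0.33. By that scaling 11.2% of all liver genes were lower and 35.7% higher, and the lower genes were *Bdh1*, *Cpt1a* and *Acad10*.

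At a limit of 1 on the log2 scale, 1 of the 29 genes was lower in cKO livers (*Bdh1*) and 1 was higher (*Cpt1b*), against 8.89% and 5.25% of all genes. Among the 3T3 genes 6 of 28 were lower and 11 were higher, with a median of 0.15, beside 22.9% lower and 23.1% higher of all 10766 genes compared and a median of -0.01. At a limit of 1, 3 were lower (*Acat1*, *Pccb* and *Mut*) and 4 were higher (*Cpt1a*, *Acadvl*, *Acads* and *Decr1*), against 8.08% and 9.36% of all genes. With the FPKM sums of both 3T3 groups made equal, 5 genes were lower and 12 were higher, their median was 0.29 and that of all genes was 0.12.

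**Figure D1:**
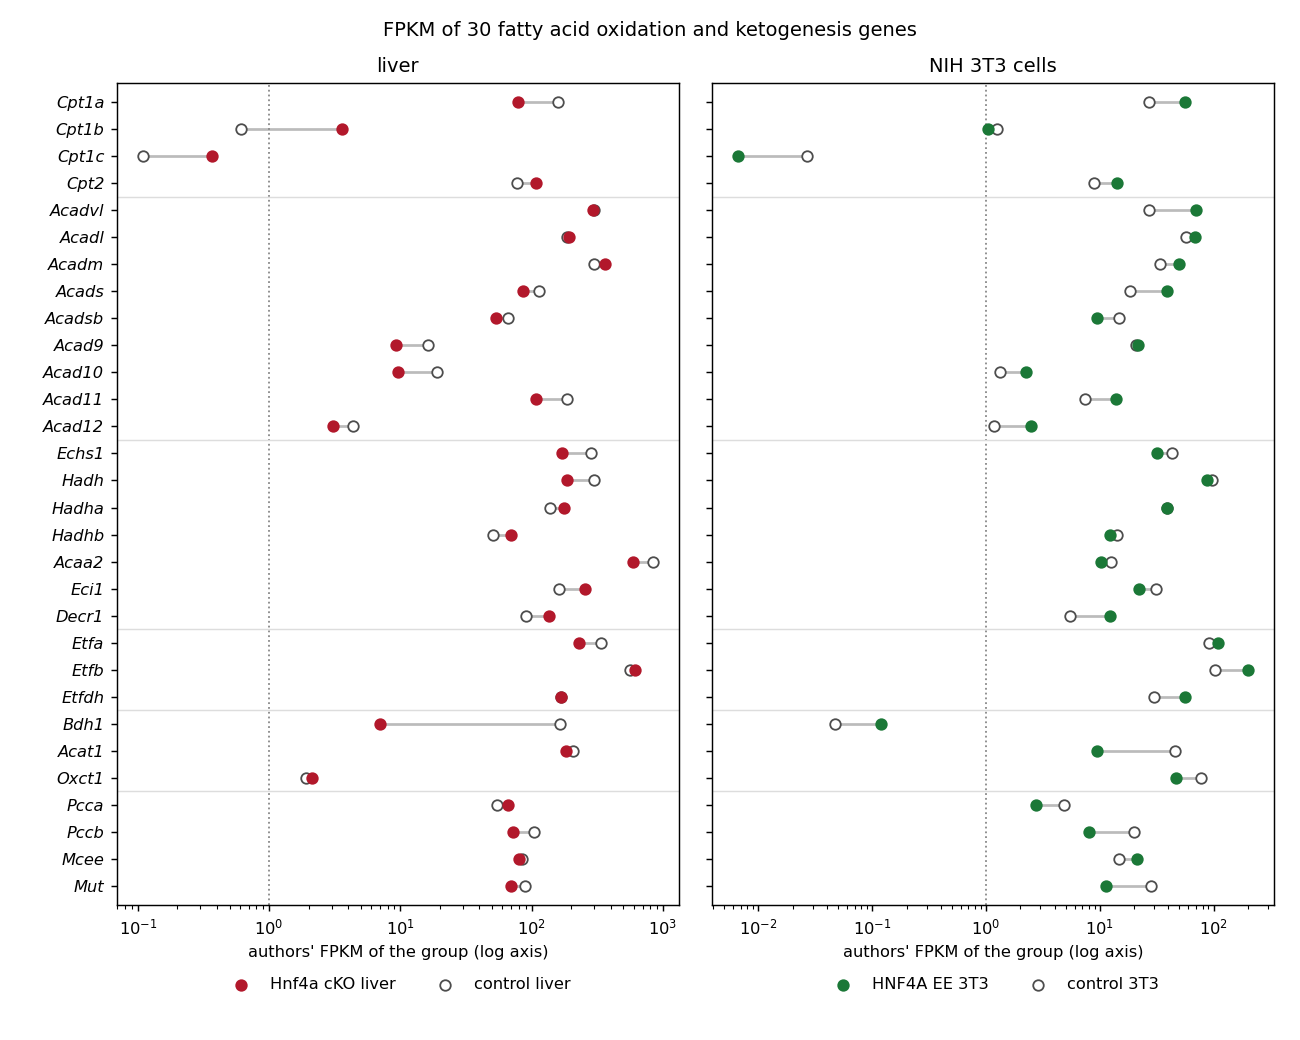
FPKM of each of the 30 genes on a log axis, with *Hnf4a* cKO liver (red) and control liver (open) on the left and HNF4A EE 3T3 (green) and control 3T3 (open) on the right; each point is the authors' single value for a group, and the dotted line marks 1 FPKM. *Bdh1* has the widest liver gap, at 7.06 FPKM in cKO livers and 166 FPKM in control livers, and *Acat1* has the widest gap of the 3T3 genes above 1 FPKM, at 9.40 FPKM in HNF4A EE cells and 45.8 FPKM in control cells.

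These were abundant transcripts of the liver, and FPKM, being per length, allows levels to be set beside each other within a group. The median of the 30 genes was 97.4 FPKM in cKO livers and 126 FPKM in control livers, while all genes compared had medians of 8.04 and 8.62 FPKM in the same order of groups. In 3T3 cells the median of the 30 was 17.8 FPKM in HNF4A EE cells and 20.5 FPKM in control cells, close to the 15.4 and 15.0 FPKM of all genes. Summed, the 30 genes had 4383 FPKM in cKO livers and 5075 FPKM in control livers. As a share of the FPKM of all entries that was 0.955% in cKO livers and 0.843% in control livers, so the sum was lower while the share was higher. The 3T3 sum was 1033 FPKM, or 0.216%, in HNF4A EE cells and 880 FPKM, or 0.167%, in control cells.

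*Hnf4a* itself had 144 FPKM in cKO livers and 275 FPKM in control livers, a log2 ratio of -0.93, and a value per gene does not show whether the remaining reads came from outside the deleted part. It had 1758 FPKM in HNF4A EE cells and 0.639 FPKM in control 3T3 cells. RNA was taken from pulverized whole livers although the labels name hepatocytes, so fewer cells of a type and less RNA per cell cannot be told apart. Of 9 hepatocyte markers compared, 6 were lower and 1 was higher in cKO livers, beside 19.1% and 15.5% of all genes. The 10 markers summed to 29118 FPKM in cKO livers and 46045 FPKM in control livers. *Alb* was listed at 0 in both, which can be a failed estimate. Neutrophil markers summed to 38.9 FPKM in cKO livers and 3.64 FPKM in control livers, cholangiocyte markers to 42.2 and 29.4, and macrophage markers to 312 and 296. The neutrophil sum came mainly from *S100a8*, at 17.5 and 1.45 FPKM, and *S100a9*, at 17.3 and 1.81 FPKM, in cKO and control livers. *Retnlg* had 3.40 and 0 FPKM, *Mpo* and *Csf3r* were below 1 FPKM in both, and *Ly6g* was not listed. *S100a8* was also higher in HNF4A EE 3T3 cells, at 8.24 FPKM against 0.337 FPKM in control cells. Of the macrophage markers *Marco* alone was above its control value, at 43.4 FPKM in cKO livers and 3.91 FPKM in control livers, and the others had log2 ratios between -0.43 and -0.02. Markers of endothelial cells summed to 71.6 FPKM in cKO livers and 92.8 in control livers, those of stellate cells and fibroblasts to 139 and 188, and those of lymphocytes to 1.53 and 3.52. The part of these markers in the differences of the 30 genes was not tested. Hepatocyte markers of the 3T3 cells summed to 1.24 FPKM in HNF4A EE cells and 0.0432 FPKM in control cells. The stellate cell and fibroblast markers summed to 249.4 and 3465, and all 4 compared were lower in HNF4A EE cells, beside 22.9% of all 3T3 genes.

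Promoter sequences are shown for the genes on which the results turn, as the 250 bases before each start site, from RefSeq on GRCm38.p6, the assembly that mm10 also names. They are *Bdh1*, with the lowest liver ratio, at both of its start sites, which lie 6456 bases apart (chr16:31422047-31422296 and chr16:31428503-31428752, plus strand); *Cpt1a* (chr19:3323051-3323300, plus strand) and *Acad11* (chr9:104063474-104063723, plus strand), which were lower in cKO livers and higher in HNF4A EE cells; and *Hadhb* (chr5:30155003-30155252, plus strand), which lies head to head with *Hadha*. *Etfa* (chr9:55512244-55512493, minus strand) and *Echs1* (chr7:140116422-140116671, minus strand) are shown for a motif. Both were lower in cKO livers as deposited and within the limits with equal FPKM sums, at -0.18 and -0.34. *Pcca*, whose match to that motif runs past the start site and is not shown, had liver log2 ratios of 0.26 as deposited and 0.64 with equal FPKM sums. Capitals mark AGGTCA on either strand, or 2 copies of it in direct repeat with 1 base between, allowing up to 2 mismatches over both copies. That repeat is the type of element that HNF4A dimers and PPARA-RXR dimers are known to bind.
Bdh1, first start site: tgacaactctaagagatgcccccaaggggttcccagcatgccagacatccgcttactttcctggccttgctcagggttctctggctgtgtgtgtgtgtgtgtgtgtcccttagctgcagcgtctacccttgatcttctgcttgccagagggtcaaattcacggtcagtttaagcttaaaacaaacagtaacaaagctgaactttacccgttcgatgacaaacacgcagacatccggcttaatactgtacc
Bdh1, second start site: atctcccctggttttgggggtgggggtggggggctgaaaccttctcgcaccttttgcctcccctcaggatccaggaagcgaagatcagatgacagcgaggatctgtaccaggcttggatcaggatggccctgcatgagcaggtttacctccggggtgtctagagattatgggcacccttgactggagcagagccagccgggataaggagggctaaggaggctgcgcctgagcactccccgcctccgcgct
Cpt1a: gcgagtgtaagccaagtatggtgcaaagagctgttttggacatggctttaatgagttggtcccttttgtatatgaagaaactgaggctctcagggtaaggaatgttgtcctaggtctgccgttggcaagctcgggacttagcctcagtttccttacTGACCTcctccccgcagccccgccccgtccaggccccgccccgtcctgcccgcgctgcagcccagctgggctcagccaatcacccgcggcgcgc
Acad11: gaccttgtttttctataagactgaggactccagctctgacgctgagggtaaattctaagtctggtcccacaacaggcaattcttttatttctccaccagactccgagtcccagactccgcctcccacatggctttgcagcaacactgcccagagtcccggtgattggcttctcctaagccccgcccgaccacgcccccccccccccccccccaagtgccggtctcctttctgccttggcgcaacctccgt
Hadhb: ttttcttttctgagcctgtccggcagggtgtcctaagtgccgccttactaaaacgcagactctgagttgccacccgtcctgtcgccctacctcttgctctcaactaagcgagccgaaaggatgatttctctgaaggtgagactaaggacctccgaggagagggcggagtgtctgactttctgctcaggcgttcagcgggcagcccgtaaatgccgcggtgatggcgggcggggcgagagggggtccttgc
Etfa: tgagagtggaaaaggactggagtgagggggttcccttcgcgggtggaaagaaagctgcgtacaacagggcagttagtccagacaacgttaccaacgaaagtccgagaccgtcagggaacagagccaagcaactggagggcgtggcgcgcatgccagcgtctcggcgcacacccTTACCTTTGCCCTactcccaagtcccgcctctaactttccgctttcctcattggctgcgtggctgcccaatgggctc
Echs1: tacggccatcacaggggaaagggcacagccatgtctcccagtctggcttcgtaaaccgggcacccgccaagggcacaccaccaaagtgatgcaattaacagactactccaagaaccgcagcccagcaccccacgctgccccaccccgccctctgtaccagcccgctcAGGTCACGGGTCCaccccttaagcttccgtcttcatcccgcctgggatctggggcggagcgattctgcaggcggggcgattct

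Motifs were counted in windows running 250 bases before to 50 bases after the start site, on both strands, for the 24 genes that had one, in 26 windows. AGGTCA, which is also part of the direct repeat and of TCAAGGTCA, was in 7 of the 26 windows (26.9%), those of *Acadm*, *Acadvl*, *Cpt1a*, *Cpt1c*, *Echs1* and *Pcca*, and in 16.3% of all 32851 mouse windows. In *Cpt1a* it lay on the minus strand, with its first base at -94 from the start site. The direct repeat with up to 2 mismatches was in 3 windows (11.5%; *Echs1* at -83, *Etfa* at -77 and *Pcca* at -1) and in 3.86% of all windows. The exact repeat was in none of the 26 and in 0.0396% of all windows, CAAAGTCCA, a sequence HNF4A is known to bind, in none and in 0.475%, and TCAAGGTCA, the element of the estrogen-related receptors, in none and in 0.423%. No match says only that these letters are not in the window. The windows of the 24 genes had a median GC content of 60.5%, against 52.7% for all windows, and 15 of 26 (57.7%) had an observed over expected CpG ratio of 0.6 or more, against 35.8%. The genes with AGGTCA that were compared in the livers, *Cpt1a*, *Echs1*, *Acadvl*, *Acadm* and *Pcca*, had log2 ratios of -0.997, -0.73, -0.03, 0.26 and 0.26 there, so genes with the motif lay on both sides of 0.

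The carnitine shuttle carries long-chain acyl groups into the matrix. *Cpt1a* (chr19:3322326-3385735), the liver isoform of carnitine palmitoyltransferase 1, had a log2 ratio of -0.997 in cKO livers and was still lower, at -0.61, with equal FPKM sums. In HNF4A EE cells its log2 ratio was 1.03. *Cpt2*, the inner membrane partner that turns acyl carnitine back to acyl-CoA, had 108 FPKM in cKO livers and 77.2 FPKM in control livers, and 14.3 FPKM in HNF4A EE cells and 8.80 FPKM in control cells, with log2 ratios of 0.48 and 0.64, and with equal FPKM sums it was higher in the livers, at 0.87. *Cpt1a* thus had 0.730 times the FPKM of *Cpt2* in cKO livers and 2.05 times in control livers, below its partner in the first and above it in the second.

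*Cpt1b*, the muscle isoform, had 3.57 FPKM in cKO livers and 0.612 FPKM in control livers, with a log2 ratio of 1.503, the highest of the 29 genes. It remained far below the liver isoform, since *Cpt1a* had 22.1 times its FPKM in cKO livers and 259 times in control livers. Muscle markers summed to 0.0652 FPKM in cKO livers and 0.0966 FPKM in control livers, with *Myh1*, *Myh4*, *Tnnt3* and *Myl1* at 0 in both, and adipocyte markers to 0.363 and 0.581 FPKM. *Cpt1b* shares its locus (chr15:89416405-89425862) with *Chkb*, a choline kinase, and with a read-through entry of both genes that overlaps all 9458 of its bases, so its reads may have been split between entries. *Chkb* had 25.9 FPKM in cKO livers and 19.3 FPKM in control livers, and the read-through entry had 0.312 and 0.0657 FPKM in the same order. *Cpt1b* of the 3T3 cells had 1.05 FPKM with HNF4A and 1.25 FPKM without. *Cpt1c*, a brain isoform, had 0.370 FPKM in cKO livers and 0.109 FPKM in control livers, and 0.00659 FPKM in HNF4A EE cells and 0.0267 FPKM in control cells.

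The acyl-CoA dehydrogenases take the first step of each round and are sorted by the chain length they accept. In cKO livers 3 of 9 were lower and none was higher, beside 19.1% lower and 15.5% higher of all genes, with a median log2 ratio of -0.39. When the FPKM sums were made equal, *Acad10* alone was lower and *Acadm*, at 0.65, was higher, beside 11.2% lower and 35.7% higher of all genes. In HNF4A EE cells 5 were higher and 1 was lower, beside 23.1% and 22.9% of all genes, with a median of 0.53. The dehydrogenases of the main chain lengths differed little in the livers. *Acadvl*, for very long chains, had 294 FPKM in cKO livers and 301 FPKM in control livers. *Acadl*, for long chains, had 193 and 187 FPKM, *Acadm*, for medium chains, 360 and 299.6 FPKM, and *Acads*, for short chains, 86.7 and 114 FPKM, in the same order of groups. Their liver log2 ratios ran between -0.39 and 0.26.

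With HNF4A the same 4 genes of the 3T3 cells were all above their control values. *Acadvl* (chr11:70010183-70015428) had 70.3 FPKM in HNF4A EE cells and 27.2 FPKM in control cells, a log2 ratio of 1.34 and the highest of the 28 genes. *Acads* had 38.8 and 18.3 FPKM with a log2 ratio of 1.05, *Acadm* 49.7 and 34.04 FPKM with 0.53, and *Acadl* 68.7 and 57.7 FPKM with 0.25, which is within the limits. *Acadl* had 0.977 times the FPKM of *Acadvl* in HNF4A EE cells and 2.12 times in control cells, whereas in the livers the ratio was 0.657 in cKO livers and 0.622 in control livers. *Acadsb*, which acts on short branched chains from isoleucine, was lower in HNF4A EE cells, at 9.35 FPKM against 14.6 FPKM in control cells, and had 53.3 FPKM in cKO livers and 65.6 FPKM in control livers.

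The lower dehydrogenases of the cKO livers were the less studied members of the family. *Acad9*, best known as an assembly factor of respiratory complex I, had 9.25 FPKM in cKO livers and 16.3 FPKM in control livers, a log2 ratio of -0.75. *Acad10* had 9.67 FPKM in cKO livers and 19.0 FPKM in control livers, a log2 ratio of -0.90. *Acad11* (chr9:104063724-104127656) had 109 FPKM in cKO livers and 187 FPKM in control livers, a log2 ratio of -0.78. With equal FPKM sums their ratios were -0.39, -0.54 and -0.39, so *Acad10* alone of the 3 stayed beyond the limit. In HNF4A EE cells *Acad11* was higher, at 13.9 FPKM against 7.47 FPKM in control cells. *Acad9* had 21.7 FPKM in HNF4A EE cells and 20.9 FPKM in control cells.

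*Acad10* had 2.23 FPKM in HNF4A EE cells and 1.31 FPKM in control cells, a log2 ratio of 0.48 that reached 0.77 when no FPKM was added. *Acad12*, its neighbour at a distance of 2087 bases and a close paralog, had 3.07 FPKM in cKO livers and 4.34 FPKM in control livers, and 2.51 FPKM in HNF4A EE cells and 1.17 FPKM in control cells, with log2 ratios of -0.39 and 0.69. Reads of this pair could have been split between them by the counting. *Acad11* overlaps *Ackr4*, a chemokine receptor gene, over 28962 bases. *Ackr4* had 0.178 FPKM in cKO livers and 0.714 FPKM in control livers, and how shared reads were allotted was not tested.

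**Figure D2:**
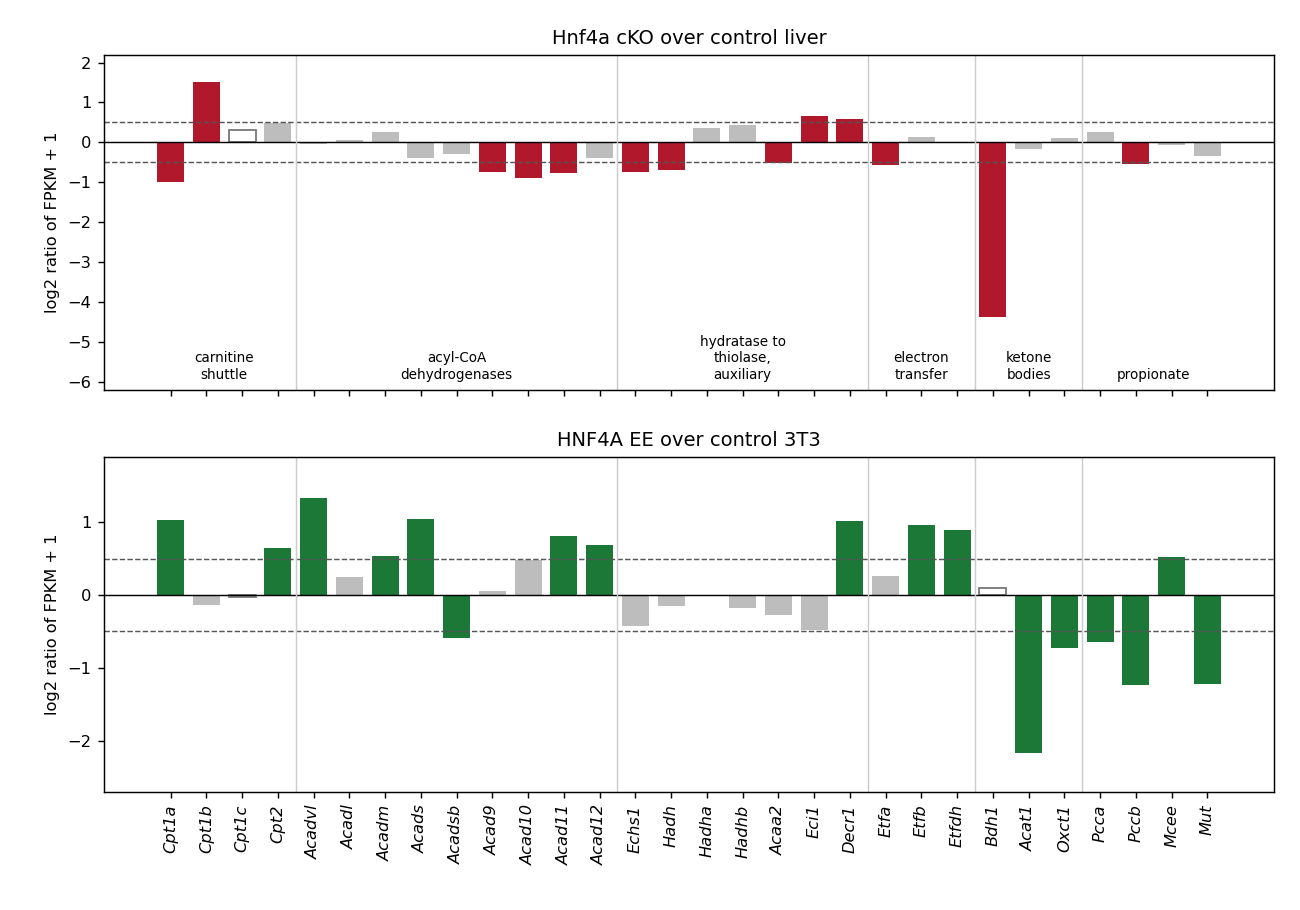
Log2 ratio of FPKM + 1 of the 30 genes by role, for *Hnf4a* cKO over control liver (upper panel) and HNF4A EE over control 3T3 (lower panel); coloured bars lie at or beyond the dashed limits of -0.5 and 0.5, grey bars lie within them and open bars were below 1 FPKM in both groups. In the livers 10 genes lie below and 3 above the limits, beside 19.1% and 15.5% of all genes. This becomes 3 and 9 when the FPKM sums are made equal, beside 11.2% and 35.7% of all genes. In the 3T3 cells 6 lie below and 11 above, beside 22.9% and 23.1% of all genes.

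The hydratases, hydroxyacyl-CoA dehydrogenases and thiolase that complete each round lay on both sides in the livers. Of 7 genes with the auxiliary enzymes 3 were lower and 2 higher, beside 19.1% and 15.5% of all genes. *Echs1*, the short-chain enoyl-CoA hydratase, had 171 FPKM in cKO livers and 284 FPKM in control livers, a log2 ratio of -0.73. *Hadh*, the short-chain hydroxyacyl-CoA dehydrogenase, had 186 FPKM in cKO livers and 301 FPKM in control livers, a log2 ratio of -0.69. *Acaa2*, the thiolase and the most abundant of the 30 genes in control livers, had 591 FPKM in cKO livers and 843 FPKM in control livers, a log2 ratio of -0.51. These 3 genes were lower as deposited, and all 3 lay within the limits with equal FPKM sums, at -0.34, -0.30 and -0.12. By that scaling 11.2% of all liver genes were lower and 35.7% higher.

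*Hadha* and *Hadhb* encode the subunits of the trifunctional protein, which performs the same 3 steps on long chains. *Hadha* had 176 FPKM in cKO livers and 137 FPKM in control livers, and *Hadhb* had 69.3 and 51.1 FPKM, with log2 ratios of 0.35 and 0.43 that became 0.74 and 0.82, beyond the limit, with equal FPKM sums. Both lay within the limits in the 3T3 cells, *Hadha* with 38.8 FPKM in HNF4A EE cells and 39.3 FPKM in control cells, and *Hadhb* with 12.4 and 14.1 FPKM. Their start sites lie 272 bases apart in opposite directions, so they share the stretch printed above for *Hadhb*. The FPKM of *Hadha* over that of *Hadhb* was 2.53 in cKO livers, 2.68 in control livers, 3.14 in HNF4A EE cells and 2.79 in control 3T3 cells.

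*Eci1* and *Decr1*, the auxiliary enzymes that deal with the double bonds of unsaturated fatty acids, were the other higher genes of the cKO livers. *Eci1*, an isomerase, had 255 FPKM in cKO livers and 162 FPKM in control livers, a log2 ratio of 0.65, and *Decr1*, a reductase, had 136 and 90.9 FPKM, a log2 ratio of 0.58. *Decr1* was also higher in HNF4A EE cells, with 12.2 FPKM against 5.52 FPKM in control cells and a log2 ratio of 1.02. *Eci1* was not, with 22.3 FPKM in HNF4A EE cells and 31.4 FPKM in control cells. The remaining genes of this step lay within the limits in the 3T3 cells: *Echs1* had 31.7 FPKM with HNF4A and 42.8 FPKM without, *Hadh* 87.7 and 97.7 FPKM, and *Acaa2* 10.2 and 12.5 FPKM.

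The electron transfer flavoprotein is a dimer of the products of *Etfa* and *Etfb*, and *Etfdh* passes its electrons to ubiquinone. *Etfa* had 229 FPKM in cKO livers and 339.8 FPKM in control livers, a log2 ratio of -0.57, while *Etfb* had 612 FPKM in cKO livers and 560.1 FPKM in control livers, a log2 ratio of 0.13. With equal FPKM sums *Etfa* lay within the limits, at -0.18, and *Etfb* was higher, at 0.52. The FPKM of *Etfa* over that of its partner was thus 0.374 in cKO livers and 0.607 in control livers. For the 3T3 cells it was *Etfb* that differed, with 202 FPKM in HNF4A EE cells and 104 FPKM in control cells, while *Etfa* had 110.4 and 91.7 FPKM. The ratio was 0.545 in HNF4A EE cells and 0.886 in control cells, so in both tables it was lower than in the controls. *Etfdh* had 168 FPKM in cKO livers and 167 FPKM in control livers, but 56.5 FPKM in HNF4A EE cells and 29.96 FPKM in control cells, a log2 ratio of 0.89.

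Among the ketone body genes *Bdh1* (chr16:31422297-31458901) had the lowest liver log2 ratio of the 29, -4.37, which was -4.00 with equal FPKM sums. Its level stood at the 46.0th percentile of the liver genes compared in cKO livers and at the 94.7th in control livers. *Bdh1* of the 3T3 cells had 0.120 FPKM with HNF4A and 0.0475 FPKM without. *Acat1* (chr9:53580522-53610350), the mitochondrial acetoacetyl-CoA thiolase, had 183 FPKM in cKO livers and 207 FPKM in control livers, a log2 ratio of -0.18. In HNF4A EE cells it had 9.40 FPKM against 45.8 FPKM in control cells, a 4.87-fold lower level and the lowest ratio of the 28 genes, at -2.17. *Oxct1*, the transferase that tissues need to burn ketone bodies and that hepatocytes are known to lack, had 2.12 FPKM in cKO livers and 1.902 FPKM in control livers. The 3T3 table listed it at higher FPKM, and there it was lower with HNF4A, at 46.7 FPKM against 78.3 FPKM in control cells. *Bdh1* had 3.33 times the FPKM of *Oxct1* in cKO livers and 87.1 times in control livers.

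Of 8 other ketone body genes compared in the livers, 2 were lower and 3 were higher, beside 19.1% and 15.5% of all genes. Their median was 0.02. Of 6 in the 3T3 cells 1 was lower and 1 higher, beside 22.9% and 23.1% of all genes, with a median of 0.20. *Bdh2*, a cytosolic short-chain dehydrogenase named for the same reaction, had 0.242 FPKM in cKO livers and 13.8 FPKM in control livers, a log2 ratio of -3.57, but was higher in HNF4A EE cells, at 18.8 FPKM against 7.46 FPKM in control cells. *Sirt3*, a mitochondrial protein deacetylase, had 12.1 FPKM in cKO livers and 81.7 FPKM in control livers, and 5.89 FPKM in HNF4A EE cells and 4.46 FPKM in control cells. Of the monocarboxylate carriers, *Slc16a1* had 20.5 FPKM in cKO livers and 12.1 FPKM in control livers, *Slc16a6*, which exports ketone bodies in zebrafish liver, 11.01 and 2.49 FPKM, and *Slc16a7* 40.6 and 50.9 FPKM. *Aacs*, which uses acetoacetate for lipid synthesis, had 21.2 FPKM in cKO livers and 17.1 FPKM in control livers. *Aacs* was lower in 3T3 cells with HNF4A, at 17.99 FPKM against 47.6 FPKM, while *Slc16a1* had 61.0 and 43.6 FPKM and *Slc16a6* 2.06 and 3.22 FPKM, both within the limits.

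In the propionate pathway the livers differed little and the 3T3 cells more. Propionyl-CoA carboxylase is built from the products of *Pcca* and *Pccb*. *Pcca* had 65.6 FPKM in cKO livers and 54.8 FPKM in control livers, and *Pccb* had 72.02 and 105 FPKM, with log2 ratios of 0.26 and -0.54, or 0.64 and -0.15 with equal FPKM sums, so that *Pcca* over *Pccb* was 0.911 in cKO livers and 0.521 in control livers. Both were lower in HNF4A EE cells, *Pcca* with 2.73 FPKM against 4.85 FPKM in control cells and *Pccb* with 7.96 FPKM against 20.1 FPKM, log2 ratios of -0.65 and -1.24. *Mut*, the methylmalonyl-CoA mutase now named *Mmut*, had 69.8 FPKM in cKO livers and 88.9 FPKM in control livers, and 11.4 FPKM in HNF4A EE cells and 27.9 FPKM in control cells, log2 ratios of -0.34 and -1.22. *Mcee*, the epimerase between them, was higher in the 3T3 cells, with 21.4 FPKM in HNF4A EE cells and 14.6 FPKM in control cells, and had 80.9 and 85.2 FPKM in cKO and control livers.

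Of the 28 genes compared in both tables, 15 (53.6%) had liver and 3T3 ratios of opposite sign, beside 55.7% of the 9239 genes compared in both tables. *Cpt1a* and *Acad11* were lower in cKO livers and higher in HNF4A EE cells, which is 2 of 28 genes (7.14%), beside 489 of the 9239 (5.29%). None was higher in cKO livers and lower in HNF4A EE cells, beside 4.22% of all. *Pccb* was lower in both (3.57%, beside 2.48% of all) and *Decr1* was higher in both (3.57%, beside 3.05%). *Acadl*, *Hadha* and *Hadhb* lay within the limits in both. With equal FPKM sums the pair with opposite calls was *Cpt1a* and *Acad10*, so *Cpt1a* alone held under that scaling.

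**Figure D3:**
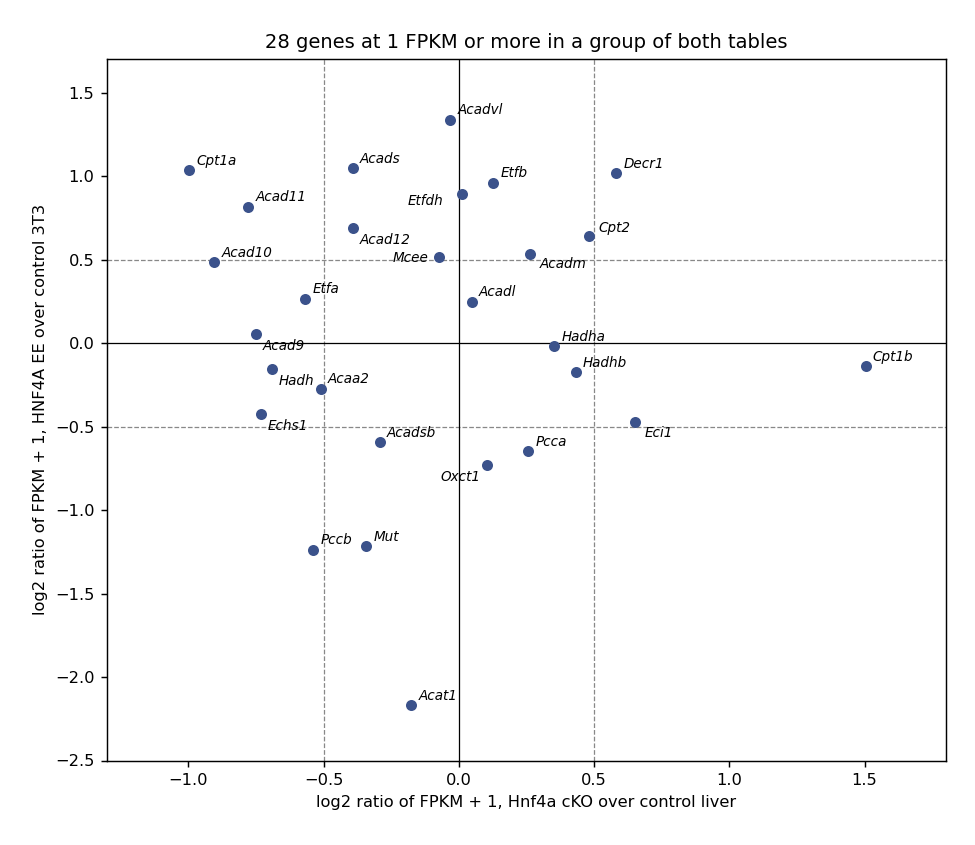
Log2 ratio of FPKM + 1 in *Hnf4a* cKO over control liver (horizontal) and in HNF4A EE over control 3T3 (vertical) for the 28 genes at 1 FPKM or more in a group of both tables, with dashed lines at -0.5 and 0.5. *Cpt1a* (-0.997 and 1.03) and *Acad11* (-0.78 and 0.82) lie in the upper left corner beyond both limits, and *Decr1* (0.58 and 1.02) and *Pccb* (-0.54 and -1.24) lie beyond them on the same side.

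Peroxisomal beta-oxidation is the related pathway that shortens very long and branched chains. Of 17 of its genes 10 were lower and 1 was higher in cKO livers, beside 19.1% and 15.5% of all genes. Their median log2 ratio was -0.68. Of the 13 compared in the 3T3 cells, 8 were higher and 1 was lower, beside 23.1% and 22.9% of all genes. The median there was 0.65. With equal FPKM sums the liver counts were 6 lower and 5 higher, beside 11.2% and 35.7% of all genes, with a median of -0.29. *Decr2*, the peroxisomal counterpart of *Decr1*, had 34.7 FPKM in cKO livers and 113 FPKM in control livers, a log2 ratio of -1.67, whereas *Decr1* was higher. *Pecr*, a peroxisomal reductase, had 98.9 and 262 FPKM, and *Acaa1b*, a thiolase with a close paralog, had 201 and 503 FPKM, in cKO and control livers. Among the 3T3 genes the acyl-CoA oxidase gene *Acox3*, at 8.89 FPKM with HNF4A and 1.99 FPKM without, was higher. So were the transporter *Abcd3*, at 41.6 and 20.9 FPKM, and the bifunctional enzyme *Hsd17b4*, at 38.9 and 21.3 FPKM.

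Among 21 further genes of mitochondrial fatty acid oxidation, 6 were lower and 5 higher in cKO livers, beside 19.1% and 15.5% of all genes. Their median was -0.27. Of 17 compared in the 3T3 cells 3 were lower and 3 higher, beside 22.9% and 23.1% of all genes, with a median of 0.14. With equal FPKM sums the liver counts were 4 lower and 8 higher, beside 11.2% and 35.7% of all genes. *Acot2*, a mitochondrial acyl-CoA thioesterase, was higher in both, at 28.9 FPKM in cKO livers against 3.91 FPKM in control livers, and 41.0 FPKM in HNF4A EE cells against 5.65 FPKM in control cells. Reads of *Acot2* and its near-identical neighbour *Acot1* may have been split by the counting. *Gcdh*, an acyl-CoA dehydrogenase of lysine breakdown, had 58.2 FPKM in cKO livers and 327 FPKM in control livers, and 13.4 FPKM in HNF4A EE cells and 7.99 FPKM in control cells. *Acsl5*, which activates fatty acids, had 40.3 FPKM in cKO livers and 148 FPKM in control livers, and *Crat*, the carnitine acetyltransferase, had 32.4 and 9.93 FPKM. Of the 3T3 genes *Ivd*, the dehydrogenase of leucine breakdown, had 13.3 FPKM with HNF4A and 26.5 FPKM without, and *Mmadhc*, which serves the cobalamin cofactor of MUT, had 60.2 and 89.2 FPKM.

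Of the regulators of the pathway other than *Hnf4a*, 7 of 17 were lower and none was higher in cKO livers. That stood beside 19.1% and 15.5% of all genes, and the median of the 17 was -0.23. *Ppara*, the receptor that activates many of these genes during fasting, had 7.48 FPKM in cKO livers and 52.6 FPKM in control livers, a log2 ratio of -2.66. Its partner *Rxra* had 56.4 FPKM in cKO livers and 109 FPKM in control livers, *Creb3l3* had 111 and 172 FPKM, *Nr2f2* 4.31 and 9.02 FPKM, *Esrrg* 0.988 and 1.98 FPKM, and the coactivator *Ppargc1b* 0.345 and 1.69 FPKM. With *Sirt3* these are the 7. *Ppargc1a*, *Ppard*, *Pparg*, *Rxrb*, *Esrra*, *Foxo1*, *Sirt1*, *Lpin1*, *Ncor1* and *Nrip1* lay between -0.34 and 0.21. With equal FPKM sums 6 of the 18 regulators, *Hnf4a* included, were lower and 1 was higher, beside 11.2% and 35.7% of all genes. Their median was then 0.07.

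*Ppara* was not among the 13 regulators other than *Hnf4a* that were compared in the 3T3 cells. Of the 13, 3 were higher and 2 lower, beside 23.1% and 22.9% of all genes. *Esrra*, an estrogen-related receptor that activates oxidative genes, had 34.7 FPKM in HNF4A EE cells and 12.6 FPKM in control cells, a log2 ratio of 1.39. *Foxo1* had 23.4 and 10.6 FPKM, and the corepressor *Nrip1* 4.43 and 2.44 FPKM. *Nr2f2* was lower, at 21.7 FPKM against 71.3 FPKM in control cells, and *Ppargc1b* had 0.927 and 2.79 FPKM. *Ppard*, *Rxra*, *Rxrb*, *Nr2f1*, *Sirt1*, *Sirt3*, *Lpin1* and *Ncor1* lay between -0.45 and 0.34.

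**Figure D4:**
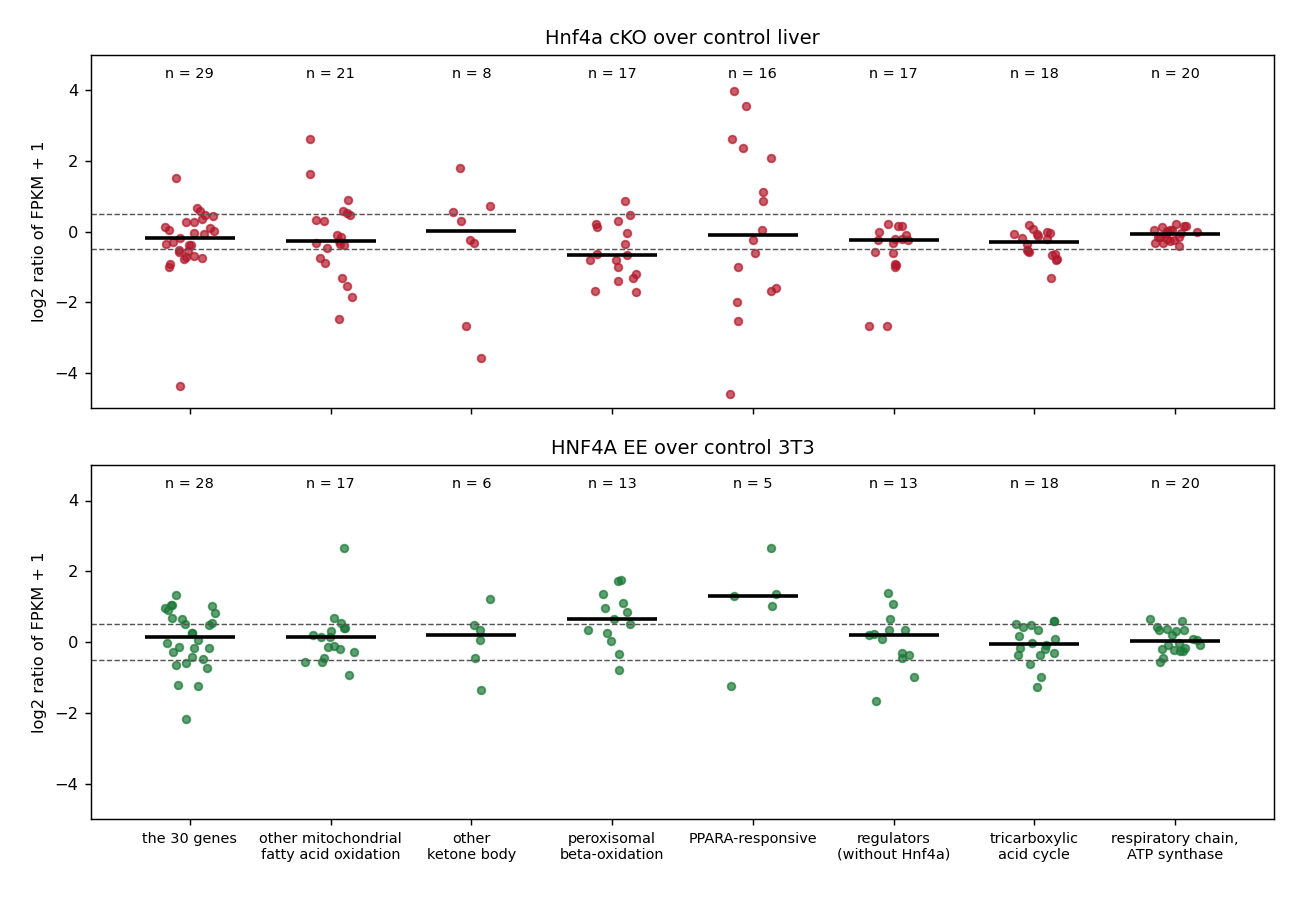
Log2 ratio of FPKM + 1 of the 30 genes and of related gene lists, for *Hnf4a* cKO over control liver (upper panel) and HNF4A EE over control 3T3 (lower panel); each point is a gene at 1 FPKM or more in a group, bars are medians, and sideways scatter has no meaning. Peroxisomal genes have medians of -0.68 in the livers and 0.65 in the 3T3 cells, the 30 genes -0.18 and 0.15, and the respiratory chain -0.06 and 0.02. Equal FPKM sums would turn these liver medians to -0.29, 0.21 and 0.33 in the same order of lists, and that of all liver genes to 0.33.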

How the data were processed

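RNA was sequenced from 3 biological replicates in each of 4 groups. Per the methods and the submitters' processing notes, the authors aligned reads to mm10 with STAR 2.5.0b and calculated FPKM with Cufflinks 2.2.1. The deposited tables give 1 FPKM per gene and group, and each table was normalized on its own. The annotation, the strandedness of the counting and the way libraries were scaled were not given in the sources used here. Both tables also hold the authors' own comparison (log2 fold change, test statistic, p-value and q-value), which was not used, so no result here carries a test. FPKM reached below 1e-06, which leaves no read counts to recover, and depth is unknown.

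For each table the log2 ratio of FPKM + 1 was computed with Python 3.11.15 and pandas 2.3.3, and genes at 1 FPKM or more in a group were compared at log2 limits of -0.5 and 0.5. The steps were tested on simulated data. Alternatives were no pseudocount or 0.1 FPKM, no floor or 5 FPKM, a limit of 1, equal FPKM sums, and centring on the median. Entries naming several genes (101 per table) include none of the 30. The named genes are all 30, every regulator and other ketone body gene at 1 FPKM or more in a group, and up to 4 of each remaining list with the largest ratios at 5 FPKM or more. A few of the genes so chosen are left out of the text. The genes and all lists were chosen with earlier results of these data known. The loci of all 30 genes in the tables overlap the RefSeq genes on GRCm38.p6, whose coordinates are given. Protein sequences were not analysed here, and promoter windows were matched for 24 of the 30 genes.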

Additional observations from a re-analysis of the deposited data

How the results depend on the processing

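No paired analysis was possible because each table holds 1 combined FPKM per group and no value per sample, and for the same reason no replicate could be left out. With the FPKM sums made equal, the cKO livers had 3 of the 30 genes lower and 9 higher (as deposited 10 and 3). All liver genes then had 11.2% lower and 35.7% higher. The liver median of the 30 was 0.21 (as deposited -0.18), and the 3T3 median was 0.29 (as deposited 0.15). Among all liver genes 76.1% of those beyond the limits were then higher, against 44.7% as deposited, and in the 3T3 cells 61.3% against 50.2%. In the livers this took 7 genes inside the limits (*Acad9*, *Acad11*, *Echs1*, *Hadh*, *Acaa2*, *Etfa* and *Pccb*) and 6 beyond them (*Cpt2*, *Acadm*, *Hadha*, *Hadhb*, *Etfb* and *Pcca*), and in the 3T3 cells *Acadsb* and *Acad10* crossed. At a log2 limit of 1 the counts were 1 lower and 1 higher in the livers and 3 lower and 4 higher in the 3T3 cells, and 0 genes were lower in cKO livers and higher in HNF4A EE cells. That last count was 2 as deposited and 4 with no pseudocount (*Cpt1a*, *Acad10*, *Acad11* and *Acad12*). Other pseudocounts, floors and centring kept every other member count within 1.5 times its value.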

Other observations

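Genes outside the pathway that PPARA is known to activate lay on both sides in the livers. Of 16 compared 7 were lower and 7 higher, beside 19.1% and 15.5% of all genes. Their median was -0.10 (0.29 with equal FPKM sums). *Fabp1*, the liver fatty acid binding protein, had 447 FPKM in cKO livers and 10744 FPKM in control livers, while *Pdk4*, a kinase that shuts off pyruvate dehydrogenase, had 31.9 and 1.08 FPKM and the cytosolic thioesterase *Acot1* had 243 and 19.8 FPKM. Of 5 compared in the 3T3 cells, 4 were higher with HNF4A, beside 23.1% of all 3T3 genes. Among them was *Angptl4*, an inhibitor of lipoprotein lipase, at 45.0 FPKM against 17.5 FPKM. *Acot1* was the exception, at 5.21 FPKM in HNF4A EE cells and 13.6 FPKM in control cells.

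The tricarboxylic acid cycle and the respiratory chain, which take up the products of fatty acid oxidation, differed from each other in the livers. Of 18 cycle genes 8 were lower and none higher in cKO livers, beside 19.1% and 15.5% of all genes, with a median of -0.29. With equal FPKM sums 1 was lower and 1 higher, beside 11.2% and 35.7% of all genes, with a median of 0.10. *Fh1*, the fumarase, had 94.6 FPKM in cKO livers and 235 FPKM in control livers, *Sucla2* 67.3 and 118 FPKM, and the succinate dehydrogenase genes *Sdha* 166 and 288 FPKM and *Sdhb* 175 and 278 FPKM. None of 20 respiratory chain and ATP synthase genes was beyond the limits in the livers (median -0.06). With equal FPKM sums 4 were higher, beside 35.7% of all genes (median 0.33). *Uqcrc1* had the lowest ratio of these, -0.40. With HNF4A 3 cycle genes of the 3T3 cells were lower and 3 higher, beside 22.9% and 23.1% of all genes. Their median was -0.05. *Idh2*, an isocitrate dehydrogenase, had 55.0 FPKM in HNF4A EE cells and 133 FPKM in control cells, and *Suclg2* had 16.9 and 34.4 FPKM. *Cox5a* of the respiratory chain had 768 FPKM in HNF4A EE cells and 486 FPKM in control cells, and *Atp5b* of the ATP synthase had 843 and 1251 FPKM.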
